A study of Saccharomyces cerevisiae with 32 samples.

Results

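Y128 was compared with Y127 during anaerobic growth on glucose, by RNA-seq. Both are *Saccharomyces cerevisiae* strains of one lineage. All genes with a mean of at least 1 RPKM (reads scaled by gene length and by library total) over the 4 libraries compared were kept, which gave 5863 of the 6328 genes in the deposited table. The Y128 group held libraries A and B, and the Y127 group held 2 libraries that carry the same replicate letter in the table and are called libraries 17 and 18 here, after their columns.

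The lineage starts with Y22-3, a stress-tolerant strain engineered with a bacterial xylose isomerase (*CpXylA*), a yeast xylulokinase (*XYL3*, named *PsXyl3* in the table) and *TAL1*, and a marker for G418 resistance. Y127 was evolved from Y22-3 on xylose with oxygen, and Y128 was evolved from Y127 without oxygen. Y127 and Y128 share null mutations in *ISU1* and *HOG1*, and Y128 has further null mutations in *GRE3* and *IRA2*. Each evolved strain is a single line, so that the 2 strains may differ at sites other than these. Cultures grew in rich medium with 2% glucose in an anaerobic chamber until mid-log phase, and the duplicates were grown on different days. The libraries were depleted of rRNA, made with a stranded kit and read from one end. The same 2 strains on aerobic glucose, and Y22-3 on anaerobic glucose, were used beside the main comparison.

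*IRA2* encodes a GTPase-activating protein that turns Ras off. Active Ras stimulates adenylate cyclase, and the cAMP it makes frees the catalytic subunits of protein kinase A (PKA) from the regulatory subunit Bcy1. PKA is known to promote growth and to hold back the stress transcription factors Msn2 and Msn4, which drive genes for stress defence and for the storage of trehalose and glycogen. *HOG1* encodes the kinase of the osmotic stress pathway, *ISU1* a scaffold for iron-sulfur clusters, and *GRE3* an aldose reductase that turns xylose into xylitol.

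The authors' scaling totals, recovered from the lowest values in the table, were 12.5 M reads in each Y128 library and 15.1 and 16.9 M in Y127 libraries 17 and 18, within the 7.53 to 24.1 M of the 24 libraries used. The Y128 libraries lay closer to each other than the Y127 libraries did. The median absolute difference over genes was 0.16 on the log2 scale between the Y128 libraries and 0.23 between the Y127 libraries, and 86 genes differed by over 1 between the Y128 libraries and 238 between the Y127 libraries. Genes for cytosolic ribosomal proteins also differed within the pairs, with a median log2 RPKM of 9.07 and 8.57 in Y128 A and B and of 8.87 and 8.01 in Y127 17 and 18. The oxygen labels matched a list of 20 hypoxic genes of the study, whose median log2 RPKM was 9.27 and 9.19 in Y128 and 8.77 and 8.35 in Y127 without oxygen, and between 1.90 and 2.29 in the 4 aerobic glucose libraries of the 2 strains.

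Genes of stress defence, reserve carbohydrates and respiration were lower in Y128, and genes of sulfate assimilation and single genes such as *AZR1* and *TIR2* were higher. In all, 1137 of 5863 genes were called (19.4%) in limma at a Benjamini-Hochberg adjusted p under 0.05. Of these, 546 were higher in Y128 (9.31%) and 591 lower (10.1%). Counts of called members in the gene lists below are to be read beside these shares of all genes. After centring of the libraries on a common median, 943 were higher and 889 lower, and with the 12 glucose libraries alone 962 were higher and 832 lower. The called lower genes differed more. Their median difference was -0.97 on the log2 scale, with 92 genes beyond 2 and 28 beyond 3, and the median of the called higher genes was 0.85, with 41 genes beyond 2 and 10 beyond 3. Over all genes tested the median difference was 0.08, and the quartiles were -0.23 and 0.37.

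Both Y128 libraries were above both Y127 libraries for 2109 genes (36.0%) and below them for 1612 genes (27.5%), and the strains overlapped for 2142 genes. All 1137 called genes were among those without overlap. The count of calls depended on single libraries, at 537 without Y128 A, 739 without Y128 B and 615 without Y127 library 18. It was 1138 without Y127 library 17. Against a 2-fold difference in place of any difference, 108 genes were called, 22 higher and 86 lower. Since RNA came from whole cultures, fewer cells that express a gene and less of its RNA per cell cannot be told apart.

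**Figure D1:**
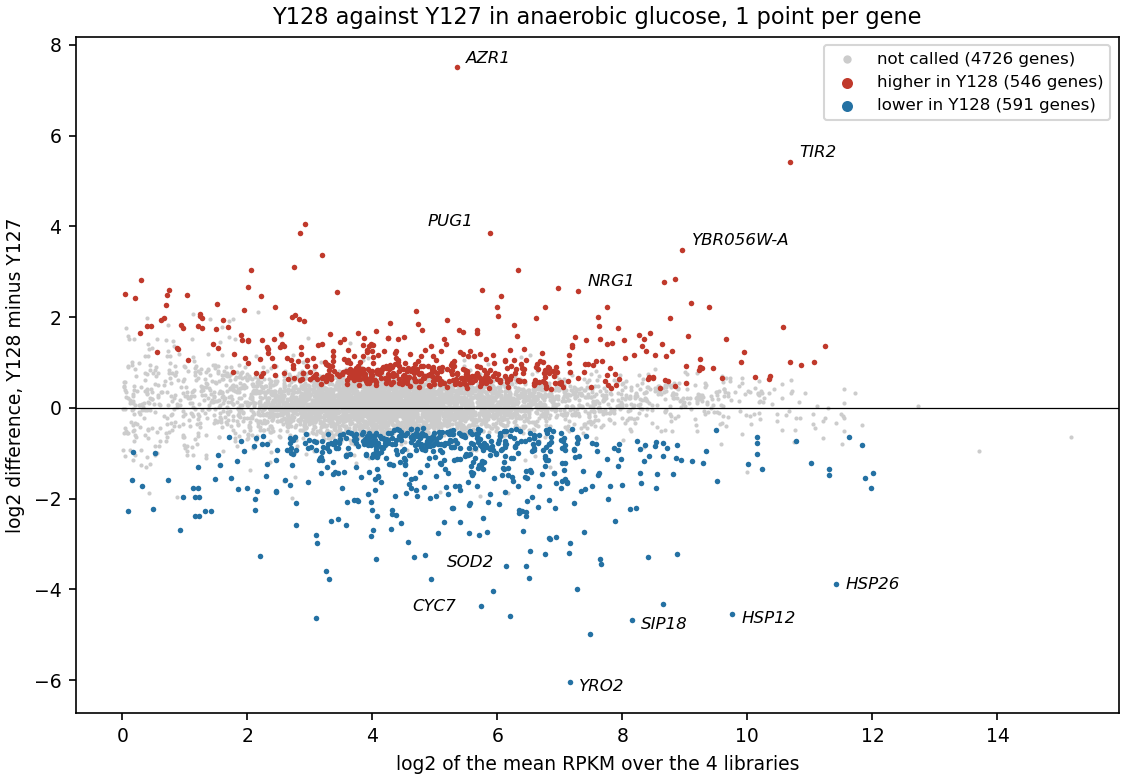
Log2 difference, Y128 minus Y127, against the log2 of the mean RPKM over the 4 libraries, with 1 point per gene for the 5863 genes tested. The 546 genes called higher in Y128 (red) and the 591 called lower (blue) are marked, and 92 of the lower but 41 of the higher genes lie beyond 2.

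The genes mutated in the lineage were still transcribed. *IRA2* had a log2 RPKM of 5.59 and 5.65 in Y128, against 6.19 and 6.47 in Y127. *GRE3* had 6.12 and 6.33 in Y128, against 7.5 and 7.69 in Y127. Both were lower in Y128 without overlap, *IRA2* by -0.71 ± 0.17 (log2 difference ± SE, adjusted p = 0.00456 in limma) and *GRE3* by -1.37 ± 0.16 (adjusted p = 5.01e-06). The call for *IRA2* was lost without Y127 library 18, at an adjusted p of 0.081 in limma. The level of RNA does not show whether a protein is made.

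*HOG1* and *ISU1*, which carry null mutations in both strains, were not called. *HOG1* differed by -0.22 ± 0.15 (adjusted p = 0.324 in limma) and *ISU1* by 0.27 ± 0.23 (adjusted p = 0.449). Among the engineered genes, *CpXylA* had a log2 RPKM of 11.00 and 10.79 in Y128, against 12.69 and 12.20 in Y127, and fell by 1.55 ± 0.30 on the log2 scale (adjusted p = 0.000965). *PsXyl3* and *TAL1* differed by 0.36 ± 0.19 and 0.07 ± 0.20, with adjusted p of 0.209 and 0.849, and their libraries overlapped.

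The 12 largest called differences in each direction were taken among genes with a mean of at least 10 RPKM. *AZR1* (YGR224W), a plasma membrane transporter known for resistance to azoles and acetic acid, had a log2 RPKM of 6.12 and 6.54 in Y128, against -0.30 and -2.05 in Y127. The recovered totals put this at about 1595 and 2132 reads in Y128, against about 22 and 7 in Y127. The difference was 7.5 ± 0.55 on the log2 scale, or 181-fold (adjusted p = 1.56e-08 in limma). *TIR2* (YOR010C), a mannoprotein of the cell wall, had 11.50 and 11.78 in Y128, against 6.34 and 6.10 in Y127, a difference of 5.42 ± 0.29 (adjusted p = 3.15e-10). *TIR2* belongs to a family of similar genes, and reads may have been shared among them.

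*PUG1* (YER185W), which is known to transport porphyrins and heme at the plasma membrane, had 6.64 and 6.90 in Y128, against 2.58 and 3.24 in Y127, a difference of 3.86 ± 0.36. The short open reading frame YBR056W-A had 9.83 and 9.85 in Y128, against 6.22 and 6.50 in Y127, a difference of 3.48 ± 0.37. *MMT1* (YMR177W), thought to move iron across the mitochondrial membrane, had 7.23 and 7.09 in Y128, against 4.17 and 4.06 in Y127, a difference of 3.05 ± 0.25. In these 3 genes the strains stood apart by far more than the libraries of a strain did, which the choice of large differences without overlap favours.

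A pair of transcription factors was also among these 12 upward, of genes with a mean of at least 10 RPKM. *NRG1* (YDR043C), a repressor that takes part in glucose repression, had 8.13 and 7.99 in Y128, against 5.21 and 5.74 in Y127, a difference of 2.58 ± 0.20 (adjusted p = 2e-08 in limma). *SMP1* (YBR182C), a factor linked to the osmotic stress response, had 6.72 and 6.90 in Y128, against 4.19 and 4.49 in Y127, a difference of 2.47 ± 0.19 (adjusted p = 2.3e-08). The neighbouring genes *AAD6*, a putative aryl-alcohol dehydrogenase, and YFL057C, which is similar to such enzymes, rose by 2.84 and 2.78 and may share reads. The other 3 of the 12 were YMR315W-A (2.63) and the strain-specific gene models GTK30L00170 (2.61) and GTK30I00250 (2.56), for which no role is given here.

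Downward, *YRO2* (YBR054W), a membrane protein related to Hsp30, had a log2 RPKM of 2.04 and 1.80 in Y128, against 7.24 and 8.69 in Y127. The difference was -6.04 ± 0.40, which is 66-fold (adjusted p = 4.37e-09 in limma). *SIP18* (YMR175W), which protects cells during drying, had 3.88 and 4.70 in Y128, against 8.33 and 9.59 in Y127, a difference of -4.67 ± 0.64. Its neighbour YMR175W-A differed by -4.58 ± 0.58, and the strain-specific gene model GTK30H01560 by -4.99 ± 0.53.

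*HSP12* (YFL014W), a small stress protein of membranes, had 5.27 and 7.01 in Y128, against 10.66 and 10.71 in Y127. The Y128 libraries were further apart in this gene than the Y127 libraries, and both lay far below them, by -4.54 ± 0.78 (adjusted p = 0.000333 in limma). *HSP26* (YBR072W), a small heat shock protein, had 8.13 and 8.60 in Y128, against 11.74 and 12.76 in Y127, a difference of -3.88 ± 0.50. *DDR2*, a gene induced by many stresses, differed by -4.33 ± 0.70.

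Others of the 12 belonged to metabolism and membranes. *CYC7* (YEL039C), the minor form of cytochrome c, had 2.30 and 2.23 in Y128, against 6.31 and 6.97 in Y127, a difference of -4.38 ± 0.48. *GAD1* (YMR250W), glutamate decarboxylase, had 2.64 and 3.00 in Y128, against 6.72 and 6.97 in Y127, a difference of -4.03 ± 0.30. *NCE102* (YPR149W), a protein of the plasma membrane domains called eisosomes, had 3.77 and 4.58 in Y128, against 8.09 and 8.25 in Y127, a difference of -3.99 ± 0.29. *PNS1*, which is similar to choline transporters, and *FMP16*, a mitochondrial protein of unknown function, fell by 3.77 and 3.75. Of the 24 genes in these 2 groups, 23 were called under every alternative tried, and YMR315W-A was lost only against a 2-fold difference. Genes chosen for the size of their difference are favoured in such a count.

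**Figure D2:**
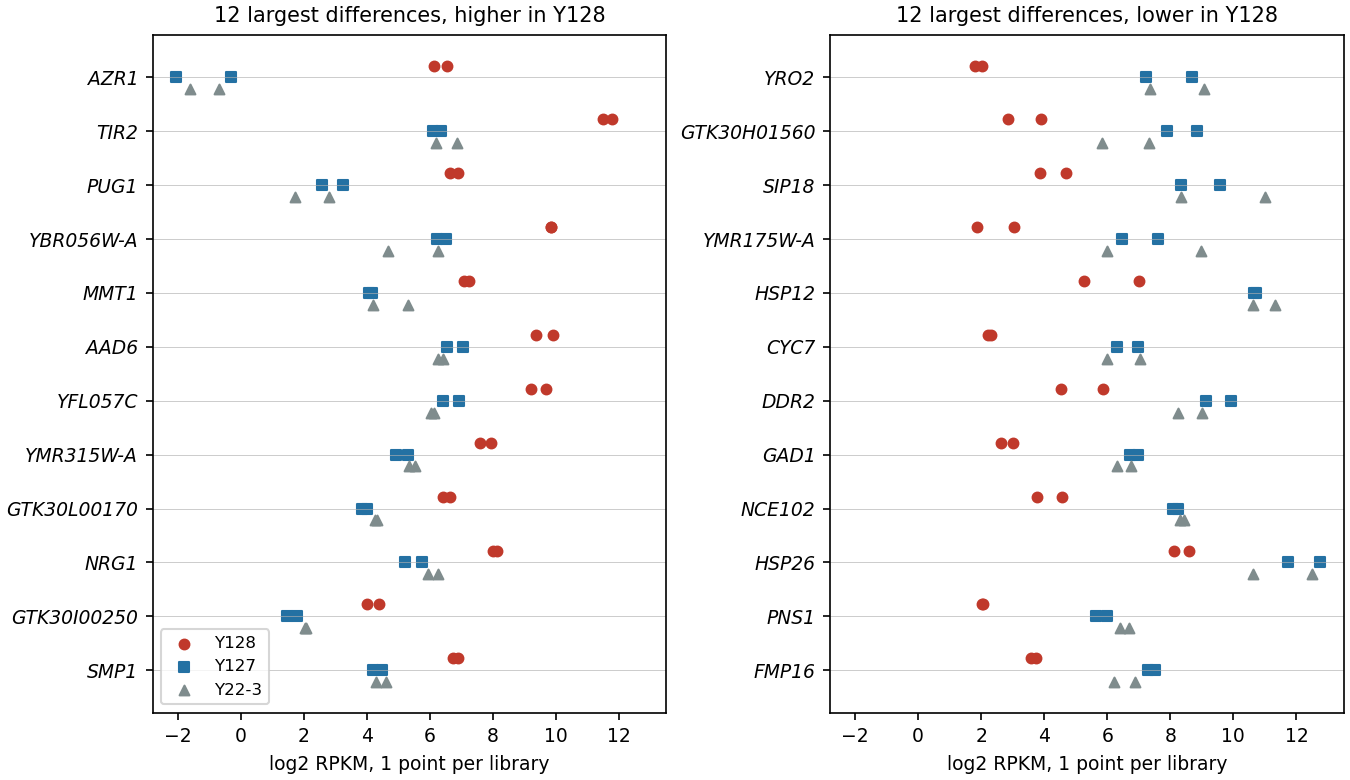
Log2 RPKM of the 12 largest called differences in each direction among genes with a mean of at least 10 RPKM, with 1 point per anaerobic glucose library of Y128 (circles), Y127 (squares) and Y22-3 (triangles). *AZR1* is at 6.12 and 6.54 in Y128 and at or below -0.30 in both Y127 libraries, and the Y127 and Y22-3 points lie near each other in most genes.

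Genes of the Ras and PKA pathway were lower in Y128 more often than higher. Of 23 members tested, 11 fell and 1 rose, and the median difference was -0.54. The library medians were 5.16 and 4.99 in Y128, against 5.71 and 5.59 in Y127. *BCY1*, the regulatory subunit of PKA, had a log2 RPKM of 6.56 and 6.80 in Y128, against 7.54 and 7.67 in Y127, a difference of -0.93 ± 0.15 (adjusted p = 0.000222 in limma). The strains did not overlap in this gene.

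Among the catalytic subunits, *TPK2* fell by 0.87 ± 0.21 and *TPK3* rose by 0.68 ± 0.22, in opposite directions. Upstream, *GPA2*, the G protein alpha subunit that senses glucose, fell by 1.23, *CDC25*, the exchange factor that activates Ras, by 0.77, and *IRA1*, the paralogue of *IRA2*, by 0.57. *RAS1*, *RAS2* and *CYR1*, the adenylate cyclase, were not called, with differences of 0.28, -0.42 and -0.54. Downstream, the kinases *RIM15* and *YAK1*, which PKA inhibits, fell, with differences of -1.20 and -1.01. *YAK1* overlaps YJL142C on the same strand, which differed by -0.96, and their reads may be mixed. Of the stress transcription factors, *MSN4* fell by 1.08 and *MSN2* was not called, with a difference of -0.24. *PDE1*, the low-affinity phosphodiesterase that breaks down cAMP, fell by 0.87, and *PDE2*, the high-affinity form, had a difference of 0.28 and was not called. With Y127 library 18 left out, 5 members were called lower and none higher, and *TPK2* (adjusted p = 0.0787 in limma), *TPK3* (0.392), *MSN4* (0.0612), *CDC25* (0.104), *IRA1* (0.146) and *PDE1* (0.392) were not called. Leaving out Y128 A ended the same calls except that of *MSN4*, leaving out Y128 B ended that of *TPK3*, and no member was called against a 2-fold difference.

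**Figure D3:**
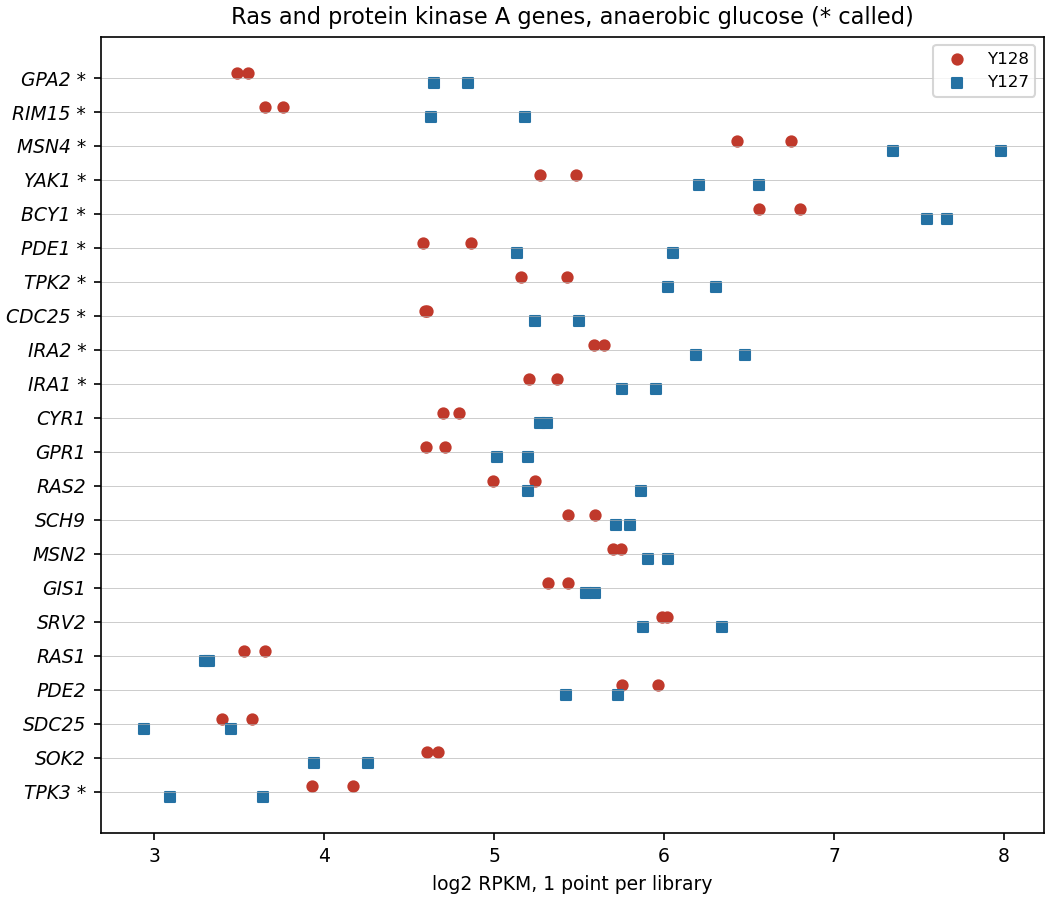
Log2 RPKM of 22 of the 23 Ras and protein kinase A genes in anaerobic glucose, ordered by their difference, with 1 point per library of Y128 (circles) and Y127 (squares). Genes with a star were called, all of them lower in Y128 except *TPK3*, which was higher.

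Targets of Msn2 and Msn4 had the lowest median of the lists examined. Of 45 members, 36 fell and none rose, with a median difference of -1.78. The median log2 RPKM of the list was 4.75 and 5.16 in the Y128 libraries, against 7.31 and 7.64 in the Y127 libraries, and the summed RPKM of its members was 4960 and 5580 in Y128, against 16600 and 21800 in Y127. Y22-3, with medians of 7.29 and 7.80, was close to Y127. Without 1 library, between 29 and 33 members were called lower, and 21 were called against a 2-fold difference. The list shares members with several lists below.

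Reserve carbohydrates showed the same direction in their synthesis and their breakdown. Of 21 trehalose and glycogen genes, 17 fell and none rose, with a median of -1.71. *PGM2*, the main phosphoglucomutase, had a log2 RPKM of 4.74 and 5.44 in Y128, against 8.66 and 8.38 in Y127, and fell by 3.43 ± 0.29 (adjusted p = 6.11e-08 in limma). *GPH1*, glycogen phosphorylase, had 4.77 and 5.55 in Y128, against 8.65 and 8.33 in Y127, and fell by 3.34 ± 0.34. *GLC3*, the glycogen branching enzyme, fell by 2.98, *GDB1*, the debranching enzyme, by 2.18, and *PIG2*, a putative targeting subunit of a phosphatase of glycogen metabolism, by 2.73. The library medians of the list were 4.74 and 5.19 in Y128, against 6.56 and 6.90 in Y127.

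Respiratory genes were lower in Y128 although neither strain had oxygen. Of 43 genes for the respiratory chain, ATP synthase and their Hap regulators, 39 fell and 2 rose, with a median of -0.94 and library medians of 5.40 and 5.26 in Y128, against 6.68 and 6.66 in Y127. *COX4*, a subunit of cytochrome c oxidase, had 4.70 and 4.91 in Y128, against 6.96 and 7.18 in Y127, and fell by 2.26 ± 0.21 (adjusted p = 2.43e-07 in limma). *CYT1*, cytochrome c1, had 4.05 and 4.28 in Y128, against 6.17 and 6.36 in Y127, and fell by 2.09 ± 0.17. *INH1*, an inhibitor of the ATP synthase, fell by 2.76, *QCR10*, a subunit of the bc1 complex, by 2.12, and *NDE2*, an external NADH dehydrogenase, by 2.06.

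The Hap complex activates such genes. Its activating subunit *HAP4* fell by 1.15 ± 0.23 (adjusted p = 0.00117 in limma) and *HAP2* by 0.89, *HAP3* rose by 0.92, and *HAP5* was not called, with a difference of -0.24. Against a 2-fold difference, 7 members of the whole list were called lower, and without Y128 B none was called higher. Leaving out Y127 library 18 ended the calls of *HAP2* (adjusted p = 0.0654 in limma) and *HAP3* (0.285). The 8 mitochondrially encoded genes gave no call in limma and a median of -0.14. Their library medians were 10.25 and 9.99 in Y128, against 9.96 and 10.28 in Y127, and overlapped. Of 66 genes for mitochondrial ribosomal proteins, 4 fell (6.06%, beside 10.1% of all genes), among them *MRP8* and *RSM28*, with a median of -0.20. None of the 66 was called without Y127 library 18, and after centring 16 were called lower and 2 higher.

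In the TCA and glyoxylate cycles and gluconeogenesis, 14 of 24 genes fell and 1 rose, with a median of -0.55. *PCK1*, which commits carbon to gluconeogenesis, had a log2 RPKM of 6.06 and 6.22 in Y128, against 7.81 and 8.12 in Y127, and fell by 1.82 ± 0.21. *FBP1*, fructose-1,6-bisphosphatase, fell by 2.45, *MDH2*, the cytosolic malate dehydrogenase, by 2.07, *MDH1*, the mitochondrial one, by 1.43, and *PYC2*, a pyruvate carboxylase, by 1.27. The duplicates of *FBP1* lay far apart, at 0.75 and 2.22 in Y128, against 3.01 and 4.87 in Y127. It was not called with the 4 libraries alone (adjusted p = 0.0738 in limma). Without Y128 A, 9 members were called lower.

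Heat shock and oxidative stress genes were lower more often than higher. Of 25 heat shock genes, 8 fell and 1 rose, with a median of -0.33. Those that fell included the stress-induced chaperones *HSP26*, *SSA3* (2.86), *HSP30* (2.72) and the disaggregase *HSP104* (1.71), and the regulator *HSF1* had a difference of -0.13 and was not called. *BTN2*, which helps to sort misfolded proteins, had 6.86 and 6.47 in Y128, against 4.08 and 5.2 in Y127, and rose by 2.02 ± 0.42 (adjusted p = 0.0019 in limma). The call of *HSP30* ended without Y127 library 18 (adjusted p = 0.0968 in limma). *SSA3* has close paralogues, with which it may share reads.

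Of 28 oxidative stress genes, 11 fell and 2 rose, with a median of -0.34. *SOD2*, the manganese superoxide dismutase of mitochondria, had 3.54 and 3.48 in Y128, against 6.75 and 7.24 in Y127, and fell by 3.48 ± 0.21 (adjusted p = 1.39e-09 in limma), or 11.2-fold. The peroxidases *GPX1*, *TSA2* and *HYR1* fell by 1.74, 1.65 and 1.14 and the glutaredoxin *GRX2* by 1.72, and the regulators *YAP1* and *SKN7* were not called. *GRX2* overlaps a gene on the other strand. Without Y127 library 18, 5 members were called lower and 1 higher.

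The osmotic stress pathway, whose kinase is mutated in both strains, differed in few genes. Of 23 members, 2 fell (8.7%, beside 10.1% of all genes) and 1 rose (4.35%, beside 9.31%), with a median of 0.02. *GPD1*, the stress-induced enzyme of glycerol synthesis, had a log2 RPKM of 7.28 and 7.51 in Y128, against 9.22 and 9.12 in Y127, and fell by 1.77 ± 0.19 (adjusted p = 1.34e-06 in limma). *RCK2*, a kinase activated by Hog1, fell by 0.62, and *FPS1*, the channel through which glycerol leaves the cell, rose by 0.58. The sensors and factors *SLN1*, *SHO1*, *PBS2*, *HOT1* and *SKO1* were not called, with differences from -0.16 to 0.21. In glycerol metabolism, 3 of 9 genes fell, *GPD1*, *GPD2* (0.81) and *GCY1* (1.5), a putative glycerol dehydrogenase, and *FPS1* rose. *FPS1* and *RCK2* were not called without Y127 library 18 (adjusted p = 0.131 and 0.159 in limma) or Y128 A (0.0773 and 0.175), *RCK2* also not without Y128 B (0.0697), and *GPD2* not without Y127 library 17 (0.106) or Y128 B (0.0992).

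Glycolysis was lower in some of its most highly expressed genes. Of 30 genes of glycolysis and fermentation, 7 fell and 1 rose, with a median of -0.35, and their summed RPKM was 21400 and 20300 in Y128, against 42200 and 29900 in Y127. *TDH3*, the main glyceraldehyde-3-phosphate dehydrogenase, had 10.51 and 10.18 in Y128, against 12.20 and 11.47 in Y127, and fell by 1.49 ± 0.31 (adjusted p = 0.00206 in limma). It has similar paralogues, and 1 of them, *TDH1*, fell by 1.44. *ENO1*, enolase, fell by 1.34, *PGK1*, phosphoglycerate kinase, by 1.21, and *HXK1*, a hexokinase, by 1.21. When the 4 libraries were fitted alone, the adjusted p of *TDH3* in limma was 0.0522.

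Of 15 genes of sugar transport and sensing, 2 were called higher (13.3%, beside 9.31% of all genes) and 1 lower (6.67%, beside 10.1%), or 2 higher and 3 lower after centring. *HXT2*, a high-affinity hexose transporter, had 10.21 and 10.23 in Y128, against 8.87 and 8.54 in Y127, and rose by 1.51 ± 0.36 (adjusted p = 0.00555 in limma). The repressor *MIG2* rose by 0.91, and *STD1*, which acts on glucose sensing, fell by 0.94. *MTH1*, the paralogue of *STD1*, differed by 0.00 ± 0.21. The sensors *SNF3* and *RGT2* and the repressors *RGT1*, *MIG1* and *MIG3* were not called. The abundant low-affinity transporter *HXT3* had 11.33 and 11.52 in Y128, against 11.52 and 11.60 in Y127, and was not called (adjusted p = 0.734 in limma). *HXT6* (0.47), *HXT7* (-0.55), *HXT4* (-0.61), *HXT10* (-1.04) and *GAL2* (-1.26) were not called either. The *HXT* genes are similar and may share reads, and *HXT1* and *HXT5* were not analysed here. *HXT2* was not called without Y127 library 18 (adjusted p = 0.0563 in limma).

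In the pentose phosphate pathway and xylitol metabolism, 8 of 19 genes fell and 2 rose, with a median of -0.21. Minor isoforms of the pathway's enzymes fell, *TKL2*, a transketolase, by 3.29 ± 0.42, *GND2*, a 6-phosphogluconate dehydrogenase, by 2.54, and *NQM1*, a transaldolase, by 2.29. *TKL2* had a log2 RPKM of 2.07 and 2.28 in Y128, against 5.06 and 5.88 in Y127. No member was called higher without Y127 library 18.

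**Figure D4:**
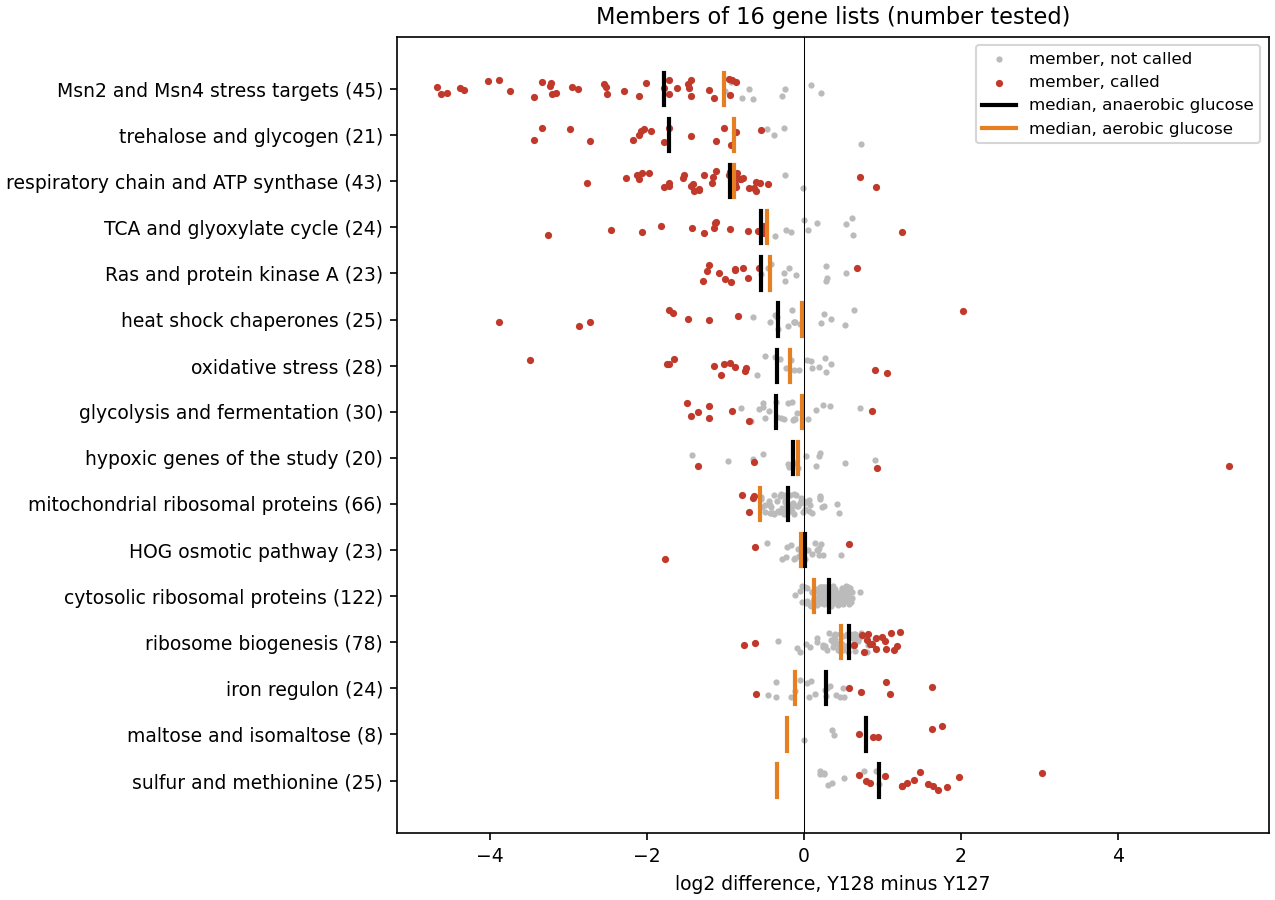
Log2 differences, Y128 minus Y127, of the members of 16 gene lists in anaerobic glucose, with called members in red, others in grey, and the list median in anaerobic (black bar) and aerobic glucose (orange bar). The medians of the Msn2 and Msn4 targets are -1.78 without oxygen and -1.01 with it, and those of the sulfur and methionine genes are 0.96 without oxygen and -0.35 with it.

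Genes for making ribosomes leaned upward in Y128 against Y127. Of 78 ribosome biogenesis genes, 16 rose and 2 fell, with a median of 0.58, and 73 had a positive difference, against 56.6% of all genes tested. After centring, 32 were called higher and 3 lower. *NOP58*, a core protein of nucleolar RNPs, had 6.14 and 5.56 in Y128, against 5.11 and 4.15 in Y127, a difference of 1.22 ± 0.35 (adjusted p = 0.0171 in limma). *NOP1* (fibrillarin) rose by 1.15, *CBF5*, the pseudouridine synthase of rRNA, by 1.03, and the assembly factors *RLP24* and *YTM1* by 1.18 and 1.12. The 2 that fell were the regulators *DOT6*, a repressor of such genes that PKA inhibits, by 0.76, and *SFP1*, an activator, by 0.63.

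This group rested on single libraries. No member was called in either direction without Y128 A, while leaving out Y127 library 18 ended the calls of *NOP58* (adjusted p = 0.271 in limma), *NOP1* (0.48), *CBF5* (0.268), *RLP24* (0.13), *YTM1* (0.146) and *DOT6* (0.066). *NOP1* was not called without Y128 B either (0.0527), and 28 members were called higher without Y127 library 17. The library medians were 4.45 and 4.19 in Y128, against 3.87 and 3.69 in Y127. The gap between the nearest libraries of the strains (4.19 and 3.87) was little larger than the gap within Y128. Of 122 genes for cytosolic ribosomal proteins, 118 had a positive difference, beside 56.6% of all genes. None was called in limma, and the median was 0.33. Both Y128 libraries were above both Y127 libraries in 13 of these 122 genes, beside 36.0% of all genes. Without Y127 library 17, 39 of these genes were called higher. Library 18 of Y127 had the lowest median for these genes, and the part of this in the ribosome biogenesis result was not tested.

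Sulfate assimilation and methionine synthesis rose together. Of 25 members, 15 rose and none fell, with a median of 0.96, and all 25 had a positive difference. The library medians were 6.14 and 6.37 in Y128, against 5.49 and 4.99 in Y127. In Y22-3 they were 5.98 (A) and 5.26 (B), so that the list also differed between duplicates of that strain. Y22-3 A lay between the other strains, and Y22-3 B within the range of Y127. *MET3*, ATP sulfurylase, had 6.96 and 6.82 in Y128, against 5.49 and 4.64 in Y127, and rose by 1.82 ± 0.40 (adjusted p = 0.00311 in limma). *MET14*, adenylylsulfate kinase, had 7.40 and 7.18 in Y128, against 5.64 and 4.99 in Y127, and rose by 1.97 ± 0.34 (adjusted p = 0.000344). The call of *MET3* ended without Y127 library 18 (adjusted p = 0.0656).

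Further along the pathway, *MET5*, a subunit of sulfite reductase, rose by 1.58, *MET2*, homoserine acetyltransferase, by 1.71, and *MET17*, which joins sulfide to its carbon chain, by 1.64. The transcription factors *MET32* and *MET28* rose by 1.49 and 0.79. *SUL1*, a sulfate permease chosen after its values were seen, had a log2 RPKM of 2.88 and 2.91 in Y128, against -0.07 and -0.20 in Y127, and rose by 3.03 ± 0.64. Without Y128 A, 9 members were called. *MET17* lost its call without Y127 library 18, with a difference of 0.96 (adjusted p = 0.318 in limma), and also without Y128 A (0.101) or Y128 B (0.0855). *MET28* lost it when any 1 of the 4 libraries was left out (0.0726 to 0.107), and *MET32* without Y127 library 17 (0.0682) or Y128 A (0.104). Both Y128 libraries were above both Y127 libraries in 23 of the 25 genes, beside 36.0% of all genes.

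Amino acid and nitrogen genes were mixed. Of 58 amino acid biosynthesis genes, 7 rose (12.1%, beside 9.31% of all genes) and 2 fell (3.45%, beside 10.1%), with a median of 0.23. *ARO9* and *ARO10*, which degrade aromatic amino acids, rose by 1.70 and 1.27, *GDH1*, glutamate dehydrogenase, by 1.51 and *HIS3* by 0.98, and *LYS20*, homocitrate synthase, fell by 1.09. *GDH1* rested on library 18 of Y127, without which it differed by 0.34 (adjusted p = 0.676 in limma), and it was not called without Y128 A (0.229) or Y128 B (0.065) either. The count of rises was 3 without that library, 14 without Y127 library 17 and 12 after centring. The activator *GCN4* was not called (0.36).

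Of 30 nitrogen catabolite genes, 3 rose and 5 fell, with a median of 0.05. *DAL4*, an allantoin permease, rose by 1.65 and *CAR1*, arginase, by 1.54. *UGA1*, which uses GABA, the product of *GAD1*, fell by 1.22 ± 0.17 (adjusted p = 3.11e-05 in limma), and the permeases *AGP1* and *MEP1* fell, with differences of -1.01 and -0.92. The GATA factors *GAT1*, *GLN3*, *DAL80* and *GZF3* were not called. Without Y128 B, 2 members were called lower, and *AGP1* was not (adjusted p = 0.0591 in limma), nor without Y127 library 17 (0.0927).

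Drug export genes were a list written after the values had been seen, so that its counts are a description of what was chosen. Of 32 members, 13 rose and 3 fell, with a median of 0.54, and their summed RPKM was 5860 and 6380 in Y128, against 3290 and 2850 in Y127. Beside *AZR1* and *PUG1*, the ABC transporters *YOR1* and *SNQ2* rose. *YOR1* had 8.41 and 8.51 in Y128, against 6.52 and 5.97 in Y127, a difference of 2.22 ± 0.23 (adjusted p = 1.14e-06 in limma). *SNQ2* had 9.36 and 9.49 in Y128, against 7.73 and 7.14 in Y127, a difference of 1.99 ± 0.33. *PDR16*, a lipid transfer protein, rose by 1.87. The count of falls was 0 without Y127 library 18.

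Nutrient genes outside sulfur gave smaller sets of calls. In the iron regulon, 5 of 24 rose (20.8%, beside 9.31% of all genes) and 1 fell (4.17%, beside 10.1%), with a median of 0.28. The reductases *FRE3* and *FRE6* rose by 1.63 ± 0.18 and 1.10 ± 0.15, the activator *AFT1* by 0.72 and the low-affinity transporter *FET4* by 0.58, and *FIT3*, a cell wall protein that holds siderophore iron, fell by 0.61. Without Y127 library 18, 2 members were called higher, and without Y127 library 17 none was called lower. *AFT1* and *FET4* lost their calls when any 1 of the 4 libraries was left out (adjusted p = 0.0626 to 0.157 and 0.0523 to 0.278 in limma), and *FIT3* when any but Y128 B was left out (0.0973 to 0.402). In the phosphate list, 5 of 22 rose (22.7%, beside 9.31% of all genes) and 1 fell (4.55%, beside 10.1%), with a median of 0.19. The acid phosphatases *PHO5* and *PHO11* rose by 1.17 each, and *PHO8*, the vacuolar alkaline phosphatase, fell by 1.35. Without Y127 library 17, 3 members were called higher, and *PHO11* lost its call without Y127 library 18 (adjusted p = 0.0534 in limma).

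Of the 8 maltose and sucrose genes tested, 5 rose, with a median of 0.79. *SUC2*, invertase, had 7.07 and 7.26 in Y128, against 6.72 and 5.85 in Y127, and rose by 0.88 ± 0.28 (adjusted p = 0.0352 in limma). The maltose activator *MAL33* rose by 0.94 and the transporter *MAL31* by 0.70. Maltose genes are repeated near chromosome ends and may share reads. Without Y128 B, 2 members were called. *SUC2* lost its call without Y127 library 18 (adjusted p = 0.44 in limma), Y128 A (0.0982) or Y128 B (0.152), and *MAL31* when any 1 of the 4 libraries was left out (0.05 to 0.228).

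Hypoxic genes are switched on when oxygen is low. Of the 20 hypoxic genes of the study, 2 rose and 2 fell, beside shares of 9.31% and 10.1% of all genes, with a median of -0.13. *TIR2* and the mitochondrial ADP/ATP carrier *AAC3* (0.93) rose, and the cell wall protein *TIR1* (1.35) and the sterol transporter *PDR11* (0.64) fell. *TIR1* had a log2 RPKM of 10.41 and 10.49 in Y128, against 12.09 and 11.51 in Y127, opposite in direction to *TIR2*. Without Y128 A, no member of this list was called lower, and without Y127 library 18, 1 was called higher. *AAC3* and *PDR11* lost their calls without Y127 library 18 or either Y128 library (adjusted p = 0.0859 to 0.539 and 0.062 to 0.258 in limma), and *TIR1* without Y127 library 17 or either Y128 library (0.0509 to 0.0909). *ANB1*, the hypoxic form of translation factor eIF5A, differed by 0.16 ± 0.51 and was not called.

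In a separate list of 20 hypoxic and heme-repressed genes, the median was 0.04. Of these, 3 rose (15.0%, beside 9.31% of all genes) and 6 fell (30.0%, beside 10.1%). *HEM13*, an enzyme of heme synthesis that needs oxygen, had 11.73 and 11.74 in Y128, against 10.89 and 9.85 in Y127, and rose by 1.36 ± 0.28 (adjusted p = 0.00146 in limma). *COX5B*, the hypoxic form of a cytochrome c oxidase subunit, fell by 1.94, and the wall mannoproteins *CWP1* and *CWP2* fell by 2.75 and 2.32. The sterol regulators *UPC2* and *ECM22* rose by 0.51 and 0.86, the heme-sensing factor *HAP1* fell by 0.77, and the repressor *ROX1* had a difference of 0.59 and was not called. Without Y127 library 18, 1 member was called higher, and *HEM13* was among the calls lost (adjusted p = 0.0534 in limma). *UPC2* lost its call when any 1 of the 4 libraries was left out (adjusted p = 0.102 to 0.19 in limma).

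Sterol synthesis gave 3 rises and 3 falls among 26 genes (11.5% each, beside 9.31% and 10.1% of all genes), with a median of 0.06. *ERG5*, the C-22 sterol desaturase near the end of the pathway, had 6.90 and 6.54 in Y128, against 9.03 and 8.85 in Y127, and fell by 2.22 ± 0.20 (adjusted p = 2.38e-07 in limma). *ERG24* fell by 0.67, and *ERG1*, *ERG12* and *MVD1* rose by 0.64, 0.60 and 0.48. No rise was called without Y127 library 18, and none of these 3 genes without either Y128 library (adjusted p = 0.0642 to 0.275 in limma). Of 16 seripauperin genes, 1 rose and 1 fell (6.25% each, beside 9.31% and 10.1% of all genes). *PAU18* rose (2.00) and *PAU7* fell (1.78), and these near-identical genes may share reads. Neither was called without Y127 library 18 or Y128 A.

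Cell wall genes, also listed after their values were seen, moved both ways. Of 40 members, 12 fell (30.0%, beside 10.1% of all genes) and 5 rose (12.5%, beside 9.31%), with a median of -0.04. *CWP1* had 3.12 and 3.08 in Y128, against 5.73 and 5.98 in Y127. *SCW10*, a glucanase-like wall protein, had 9.84 and 9.68 in Y128, against 8.61 and 6.29 in Y127, and rose by 2.31 ± 0.46 (adjusted p = 0.00114 in limma). The wall protein YLR194C also rose, by 2.22 ± 0.27. Without Y127 library 17, 9 members were called higher.

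With oxygen, the same strains differed mainly downward. Of 5863 genes, 325 were called on aerobic glucose (5.54%), 7 higher in Y128 (0.119%) and 318 lower (5.42%). After centring of the libraries on a common median, the split was 145 higher and 353 lower. The median of all genes was -0.10 before centring and 0.03 after it. No library is shared between the 2 comparisons. Of the 591 genes that fell without oxygen, 181 also fell with it, which is 30.6% of the anaerobic list and 56.9% of the aerobic one. Of the 591, 92.4% had a negative aerobic difference before centring. With a median of -0.10 over all genes, a negative sign was also the more common one among all genes. Of the 546 genes that rose without oxygen, 3 also rose with it, which is 0.549% of the anaerobic list and 42.9% of the aerobic one, and 7 fell. Their median aerobic difference was -0.01. These overlaps are before centring, where only 7 genes in all were called higher with oxygen, so that few rises could be shared. The overlap with the 145 genes called higher after centring is not given here.

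Respiratory and storage genes were among those lower in both. Of the respiratory genes 37 fell with oxygen, with a median of -0.89, and of the trehalose and glycogen genes 13 fell, with a median of -0.89. *GPH1* differed by -3.34 without and -3.11 with oxygen and *GPD1* by -1.77 and -1.66. Of the Msn2 and Msn4 targets 21 fell with oxygen, with a median of -1.01, and of the Ras and PKA genes 4 fell, with a median of -0.42. Leaving out any of the 4 aerobic libraries lowered the aerobic count, to 80 without Y127 library 6, to 178 without Y127 library 5, to 134 without Y128 A and to a value between these without Y128 B.

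The dependence on oxygen was tested as the anaerobic minus the aerobic strain difference. This interaction was called for 307 genes (5.24%), 220 higher (3.75%) and 87 lower (1.48%). Its median over all genes was 0.16, and after centring the split was 261 higher and 214 lower. The interaction contains the anaerobic difference, so that genes called by that difference are favoured to have a called interaction of the same sign. Before centring, 178 of the 546 genes that rose without oxygen had a called interaction. Of the 591 that fell, 90 had one, 86 of them toward a larger fall. The count was 166 without Y128 A, 186 without Y128 B, 192 without Y127 library 18 and 285 without Y127 library 17.

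*TIR2* and *AZR1* had the largest interactions in the positive direction among the named genes, at 5.78 ± 0.41 and 6.67 ± 0.78 (adjusted p = 5.41e-08 and 4.21e-05 in limma). With oxygen *TIR2* had a log2 RPKM of 1.17 and 1.10 in Y128 and of 1.34 and 1.65 in Y127, and *AZR1* was at or below -1.78 in all 4 libraries. *SOD2* had 7.23 and 7.30 in Y128 and 7.91 and 7.86 in Y127 with oxygen, an aerobic difference of -0.62 ± 0.21, and its interaction was -2.86 ± 0.30 (adjusted p = 1.31e-05). Of the 25 sulfur and methionine genes, 12 had a called interaction, all higher, beside 3.75% of all genes, with a list median of 1.5. *MET14* was at 5.37 and 5.31 in Y128 and at 5.51 and 5.76 in Y127 with oxygen. Of the 32 drug export genes, 13 had a higher interaction and 1 a lower one, beside 3.75% and 1.48% of all genes. That list was written after the values had been seen. Without Y127 library 18, the interaction was 1.53 for *SNQ2* in place of 1.83, and 1.465 for *PDR16* in place of 1.84. Neither call held without that library or without either Y128 library. With the 12 glucose libraries alone, the interaction of *SNQ2* was not called (adjusted p = 0.0575 in limma).

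Some genes differed more with oxygen than without it. *HXK1* had a log2 RPKM of 0.62 and 0.76 in Y128, against 4.72 and 5.76 in Y127, with oxygen, and of 8.37 and 8.75 in Y128, against 9.80 and 9.75 in Y127, without it. The strain difference was -4.55 ± 0.24 with oxygen and -1.21 ± 0.24 without it, and the interaction was 3.33 ± 0.34 (adjusted p = 1.31e-05 in limma). *MTH1* differed by -1.5 ± 0.21 with oxygen and was not called without it, with an interaction of 1.5 ± 0.30 (adjusted p = 0.00478). *TDH1* differed by -2.35 with oxygen and -1.44 without it, and its interaction was not called (adjusted p = 0.283).

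**Figure D5:**
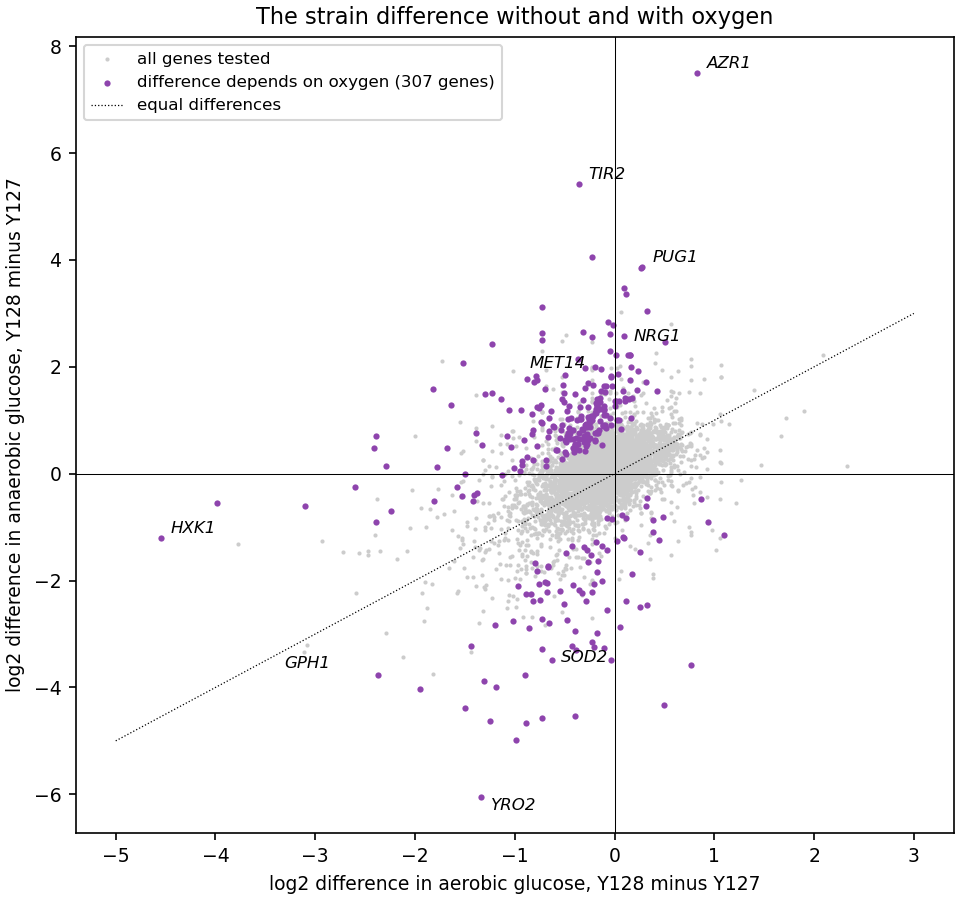
Log2 difference between the strains, Y128 minus Y127, in anaerobic glucose against that in aerobic glucose, with 1 point per gene and the 307 genes with a called interaction in purple. *AZR1* (7.5 without oxygen and 0.83 with it) and *TIR2* (5.42 and -0.36) lie far above the line of equal differences, and *HXK1* (-1.21 and -4.55) lies far to the left of it.

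Y22-3, the parent of both, was also grown on anaerobic glucose. The comparisons with it share the Y128 or the Y127 libraries with the main comparison, so that only values are given side by side. Y128 differed from Y22-3 in 1198 genes (20.4%), 370 higher (6.31%) and 828 lower (14.1%), or 866 and 799 after centring. Y127 differed from Y22-3 in 97 genes (1.65%), 29 higher (0.495%) and 68 lower (1.16%), or 181 and 113 after centring. Without 1 library, the first count was between 600 (without Y128 B) and 949, with 682 without Y22-3 B and 698 without Y128 A. The count for Y127 was 12 without Y22-3 A, 14 without Y127 library 18, 171 without Y22-3 B and 277 without Y127 library 17.

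For the Msn2 and Msn4 targets, the median difference was -1.80 in Y128 against Y22-3, with 32 members lower, and 0.13 in Y127 against Y22-3, with none called in limma. For the respiratory genes it was -0.79 in Y128, with 33 lower and 1 higher, and 0.33 in Y127, with 1 higher. For the sulfur and methionine genes it was 0.57 in Y128, with 7 higher, and -0.46 in Y127, with 1 lower. For the ribosome biogenesis genes it was 0.14 in Y128, with 1 higher and 1 lower, and -0.48 in Y127, with none called. For the cytosolic ribosomal proteins it was -0.12 in Y128, with 1 higher and 1 lower, and -0.44 in Y127, with none called. *TIR2* differed from Y22-3 by 5.11 in Y128 and -0.31 in Y127, and *AZR1* by 7.47 and -0.03. *CWP1* was lower than in Y22-3 in both, by -4.61 in Y128 and -1.86 in Y127. *GRE3* differed by -1.94 in Y128 and -0.57 in Y127, the second of which was not called.

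*PCK1* and *ARO9* stood apart in Y127. *PCK1* differed from Y22-3 by -0.24 in Y128, which was not called, and by 1.59 in Y127 (adjusted p = 0.000935 in limma). *ARO9* differed by 0.11 in Y128 and by -1.59 in Y127 (adjusted p = 0.00101). *HOG1*, mutated in both evolved strains, was lower than in Y22-3 in both, by -0.96 in Y128 and -0.74 in Y127.

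By position, the differences were spread over the genome. For the 5720 genes whose systematic name gives a chromosome, the median difference lay between 0.02 and 0.17 on all 16 chromosomes. The share of genes called higher ran from 6.99% to 13.4% per chromosome and the share called lower from 6.82% to 13.5%. Chromosome VI had the highest median, 0.17, and an aerobic median of -0.14.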

How the data were processed

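The deposited table holds log2 RPKM values per gene, which the authors made from reads trimmed with Trimmomatic 0.3.0, mapped to the Y22-3 genome with Bowtie2 2.2.2 and counted with HTSeq 0.6.0, per the submitters' processing notes. The strand setting of the counting is not given in the sources used here. Library totals were recovered on the assumption, not stated in the sources, that 1 read was added before taking logs, from the 21 genes at 0 reads in all libraries with a known length (68 such genes in all, 5647 genes joined by systematic name to lengths of another strain). They are approximate: 47.6% of these genes gave a total within 1% of the median, and 86.0% of values under 200 reads came within 0.1 of a whole read.

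The deposited log2 values were fitted with limma 3.58.1 in R 4.3.3, with a variance trend, over 24 libraries in 12 groups of 2 (12 residual degrees of freedom). Tables and plots used Python 3.11.15, pandas 2.3.3, numpy 2.4.6 and matplotlib 3.10.9. Genes with a mean of at least 1 RPKM over the 4 libraries were tested, with Benjamini-Hochberg adjustment of p-values over all of them and a threshold of 0.05. The strain by oxygen interaction and the comparisons on aerobic glucose and with Y22-3 were contrasts of the same fit. On simulated counts for the main comparison, over 5483 genes, the fit recovered 92 of 100 genes changed by 1 on the log2 scale. It recovered 100 of 100 changed by 2, and called 7 unchanged genes. The simulated counts had the same fixed dispersion in all genes and libraries, and no shift that genes of a library share. The real duplicates did differ by such shifts, so that these figures do not measure the error rate on the real libraries.

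Named genes were the mutated and engineered genes, the 12 largest called differences per direction with a mean of at least 10 RPKM and no overlap between the strains, up to 5 called genes per list by size with the same conditions, and the listed regulators whatever their values. The members, the 35 gene lists and the tests were chosen with earlier results of these data known, and 2 further lists (drug export and cell wall) were written after the values had been seen. Both Y127 glucose columns of each oxygen condition carry the same replicate letter and were used as 2 libraries. They were not duplicates, since they differed by over 0.5 in 19.2% of genes without oxygen. The p-values rest on the spread between duplicates pooled over all 24 libraries fitted, other culture conditions included. With the 4 libraries alone, 864 genes were called in place of 1137. Alternatives were the scaling, the libraries fitted, the filter, the pseudocount, the variance trend, a 2-fold test and leaving out each library. One gene of the Ras and PKA list is counted in it but not reported here.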

Additional observations from a re-analysis of the deposited data

Results flagged for a closer look

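The strain difference depended on oxygen for 307 genes, by the test of the interaction (anaerobic minus aerobic difference, log2, limma with Benjamini-Hochberg adjustment). Of the mutated genes, *GRE3* met it, at -1.07. The genes below were named for the size of their anaerobic difference, which the interaction contains.

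Among genes higher in Y128, the interaction was 6.67 for *AZR1*, 5.78 for *TIR2*, 3.58 for *PUG1*, 3.39 for YBR056W-A, 3.36 for YMR315W-A and 2.90 for *AAD6*. It was 2.80 for YFL057C, 2.78 for GTK30I00250, 2.72 for *MMT1*, 2.65 for GTK30L00170, 2.49 for *NRG1* and 1.97 for *SMP1*.

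Among genes lower in Y128, the interaction was -4.82 for *DDR2*, -4.71 for *YRO2*, -4.15 for *HSP12*, -4.00 for GTK30H01560, -3.85 for YMR175W-A and -3.78 for *SIP18*. It was -2.88 for *PNS1*, -2.88 for *CYC7*, -2.80 for *NCE102*, -2.58 for *HSP26* and -2.08 for *GAD1*. In limma without Y128 A, the adjusted p was 0.0561 for *GRE3*, 0.0841 for *SIP18*, 0.172 for *HSP12*, 0.142 for *HSP26* and 0.0508 for YMR175W-A. Without Y127 library 18 it was 0.0689 for *CYC7*, 0.0831 for *SIP18*, 0.0805 for *HSP12* and 0.162 for *HSP26*. It was also 0.057 for *HSP12* without Y127 library 17 and 0.0624 for *HSP26* without Y128 B.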

How the results depend on the processing

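Of the 154 named genes called in the main comparison, 47 were called the same way under every alternative and 0 changed direction. Against a 2-fold difference 107 were lost, without Y127 library 18 49, without Y128 A 41, with the 4 libraries alone 35, without Y128 B 29 and without Y127 library 17 16. The count of 1137 genes became 1832 with each library centred on its median, 1794 with the 12 glucose libraries alone and 108 against a 2-fold difference, and ran from 537 to 1138 leaving out 1 library. The interaction count of 307 became 475 centred, 553 with the 12 glucose libraries and 551 with the 8 of both strains, and ran from 166 to 285 leaving out 1 library. The causes were not tested.

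Chosen after seeing the data, centring gave 498 genes on aerobic glucose and 294 for Y127 against Y22-3. Leaving out 1 library gave 80 to 178 on aerobic glucose, 600 to 949 for Y128 against Y22-3 and 12 to 277 for Y127 against Y22-3. Centring moved the median of all genes from 0.16 to 0.01 in the interaction, from -0.10 to 0.03 on aerobic glucose, from -0.12 to 0.04 for Y128 against Y22-3 and from -0.18 to 0.00 for Y127 against Y22-3. For comparisons with Y127 no paired analysis was possible because its 2 glucose columns carry the same replicate letter. For Y128 against Y22-3, chosen after seeing the data, the letter as a replicate block within each culture condition gave 1123 genes over the 20 libraries with distinct letters, against 1113 without the block and 1198 as reported. The A minus B differences of the 2 strains correlated at 0.244 across genes, which are not independent replicates, and the labels do not say what a letter shares.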

Other observations

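Further gene groups were compared on anaerobic glucose. Of 120 strain-specific gene models without reference names, 28 were higher in Y128 (23.3%, beside 9.31% of all genes) and 4 lower (3.33%, beside 10.1%), or 30 and 7 after centring, with a median difference of 0.24, and 15 were higher without Y127 library 18. GTK30D02750 had a log2 RPKM of 6.43 and 6.56 in Y128, against 9.68 and 9.76 in Y127, and GTK30J00180 had 5.32 and 5.52 in Y128, against 7.60 and 7.67 in Y127. Of 13 zinc genes, 1 fell (7.69%, beside 10.1% of all genes), and the list's median was 0.04. The fall was *IZH1*, a membrane protein linked to zinc, with 6.10 and 6.03 in Y128, against 7.70 and 7.71 in Y127. Of 14 thiamine and pyridoxine genes, 2 fell (14.3%, beside 10.1% of all genes) and 1 rose (7.14%, beside 9.31%), with a median of -0.08. *THI4*, an enzyme of thiazole synthesis, had 4.75 and 4.54 in Y128, against 6.03 and 7.78 in Y127, and *SNZ1*, of vitamin B6 synthesis, rose by 1.21. Without Y127 library 18 neither fall in that list was called.

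Of 23 mating genes, 1 rose and 1 fell (4.35% each, beside 9.31% and 10.1% of all genes), with a list median of 0.08. *STE4* rose (0.69) and *STE18* fell (0.63), the beta and gamma subunits of the G protein of the pheromone pathway. *STE4* was not called without Y127 library 18 or either Y128 library, and *STE18* not without Y127 library 17 or Y128 B. Of 24 cell cycle genes 1 rose and 1 fell (4.17% each, beside 9.31% and 10.1% of all genes), with a median of 0.00. The rise, *CDC28*, the main cell cycle kinase, had 5.49 and 5.22 in Y128, against 5.00 and 4.52 in Y127. It was lost without Y127 library 18 or Y128 A, and the fall without Y127 library 17. Of 24 peroxisome genes 2 fell (8.33%, beside 10.1% of all genes), or 4 after centring, with a median of -0.18. Among them was *PEX3*, needed to form peroxisomes, with a difference of -0.71, or -0.60 without Y127 library 18. Of 18 filamentous growth genes 2 rose (11.1%, beside 9.31% of all genes) and 1 fell (5.56%, beside 10.1%). After centring 4 rose and 2 fell, and the median before it was 0.08. *NRG1* was one of the rises, and the other, the flocculin *FLO1*, chosen after its values were seen, had 3.73 and 3.78 in Y128, against -0.17 and -0.01 in Y127. The fall, *TPK2*, was lost without Y128 A.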
